A study of Mus musculus with 2 samples.

Results

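The platelet-derived growth factor (PDGF) family was examined in single-cell RNA-sequencing of the neonatal mouse lung. It comprises the ligand genes Pdgfa, Pdgfb, Pdgfc and Pdgfd and the receptor genes Pdgfra and Pdgfrb, which are 6 of the 27998 genes counted, chosen by name. All 6 were counted in both libraries. Whole lungs of wild-type C57BL/6 mice (C57BL/6J in the study's methods) aged 2 weeks had been kept from postnatal day 0 to day 14 either in room air, at 21% O2, or at 80% O2 (hyperoxia), a model of bronchopulmonary dysplasia. For each group, cells of 8 mice were mixed into 1 library, so there is no replicate and no test between the groups. Differences between the libraries cannot be told apart from differences between the pools, the digestions or the runs, and the intervals below are 95% intervals that cover counting error only. Lungs were perfused, minced and digested with enzymes, and red blood cells were lysed. Cell shares are therefore shares of the released cells.

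PDGFs are secreted dimers that signal through receptor tyrosine kinases on mesenchymal cells. PDGF-A binds the alpha receptor, PDGF-B binds both receptors, PDGF-C acts mainly through the alpha receptor and PDGF-D mainly through the beta receptor. PDGF-C and PDGF-D are secreted in a latent form that proteases have to cleave. In the developing lung, PDGF-A from the epithelium is needed for the alveolar myofibroblasts that lay down elastin in the secondary septa, and PDGF-B from the endothelium recruits pericytes, the mural cells of capillaries.

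In the GRCm38 build Pdgfa lies at chr5:138976014-138997370 on the minus strand and Pdgfra at chr5:75152292-75198215 on the plus strand. Pdgfb lies at chr15:79995874-80014977 (minus), Pdgfc at chr3:81036416-81214040 (plus) and Pdgfd at chr9:6168584-6378850 (plus). RefSeq promoter entries (GRCm38.p6) matched 4 of the 6 genes. Pdgfa and Pdgfra are printed below, as a ligand and its receptor, whose level differed between the libraries in opposite directions in 2 fibroblast classes. Each line is the 250 bases before a transcription start, 5′ to 3′ on the gene's strand, with matches to the GC box (GGGCGG or its reverse complement CCGCCC) in capitals. The 3 windows lie at chr5:138994282-138994531 (minus), chr5:138994945-138995194 (minus) and chr5:75152001-75152250 (plus).
Pdgfa, first entry: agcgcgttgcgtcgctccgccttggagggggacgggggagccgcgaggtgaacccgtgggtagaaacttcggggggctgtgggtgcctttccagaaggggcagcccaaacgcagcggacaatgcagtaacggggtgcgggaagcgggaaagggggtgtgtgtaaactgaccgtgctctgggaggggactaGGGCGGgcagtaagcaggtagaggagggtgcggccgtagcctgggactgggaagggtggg
Pdgfa, second entry: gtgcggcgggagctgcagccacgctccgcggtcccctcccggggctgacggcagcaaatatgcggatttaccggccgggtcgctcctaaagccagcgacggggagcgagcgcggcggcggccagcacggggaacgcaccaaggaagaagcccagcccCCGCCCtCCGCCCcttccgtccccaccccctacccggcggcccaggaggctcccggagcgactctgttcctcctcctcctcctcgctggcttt
Pdgfra: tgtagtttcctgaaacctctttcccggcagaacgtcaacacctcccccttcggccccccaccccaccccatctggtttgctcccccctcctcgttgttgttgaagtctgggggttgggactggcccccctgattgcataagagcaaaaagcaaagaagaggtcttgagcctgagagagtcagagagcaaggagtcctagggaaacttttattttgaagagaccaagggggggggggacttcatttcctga

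The Pdgfa windows hold 66.4% and 72.4% G and C and contain 1 and 2 GC boxes, whereas the Pdgfra window holds 54.4% G and C and no GC box. Over all 32851 promoter windows of this length the median was 52.4% and 32.7% held a GC box on either strand. The Pdgfc window (50.8% G and C) had none of the motifs searched. The Pdgfd window (53.6%) had 1 TATA box (TATAAA or TTTATA, in 12.4% of windows), 160 bases before the start, and none of these windows had a CCAAT box (CCAAT or ATTGG, in 33.8% of windows). The motifs were searched on both strands and do not overlap each other here, and a match is a description of the letters, not of factor binding.

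Deposited were 4234 barcodes for room air and 13223 for hyperoxia, with totals of 39593888 and 111934936 UMIs (unique molecular identifiers, each standing for 1 captured transcript). After filters and removal of predicted doublets 3680 and 10472 cells remained, with a median of 8070.5 and 7208.5 UMIs. Only 17 barcodes occurred in both libraries. Of the remaining cells 22.9% and 24.9% were stromal, 27.3% and 24.2% endothelial and 8.02% and 11.7% epithelial. Cells were clustered without the PDGF genes, and classes were named from marker genes, so each name below means a class that resembles that type. Levels are summed UMIs of a gene per 1000000 UMIs of the class (CPM). They are compared between classes and libraries for 1 gene at a time, never between genes, because 3′ counts are not scaled by length.

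The ligands were highest in epithelial, endothelial and macrophage classes and both receptors in stromal classes. By the mean of both libraries, Pdgfa was highest in alveolar type 1 (AT1)-like cells, Pdgfb and Pdgfd in aerocyte capillary (aCap)-like cells and Pdgfc in interstitial macrophage-like cells. Pdgfra was highest in alveolar myofibroblast-like cells and Pdgfrb in pericyte-like cells. This leading class was the same for each of the 6 genes under the 8 alternatives to the cell filter, doublet removal, clustering, naming and UMI total that redefine the cells or the total.

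**Figure D1:**
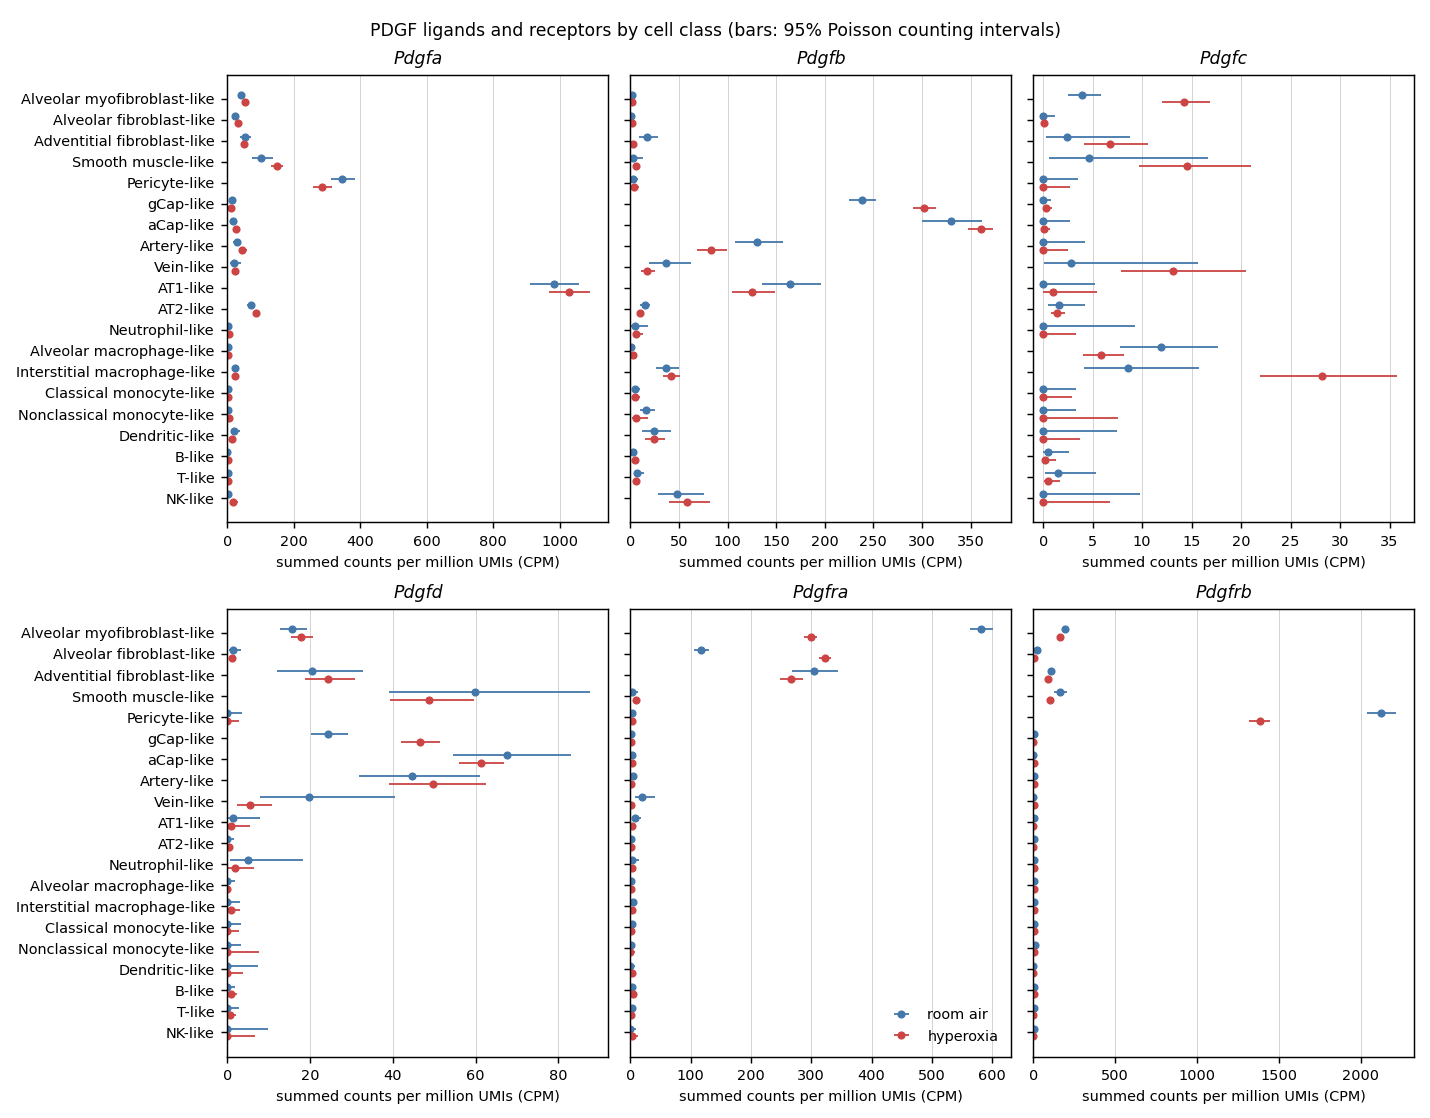
Summed CPM of the 6 PDGF genes (x axes, linear, a separate scale per gene) in 20 cell classes (y axis), with 95% Poisson counting intervals as bars, blue for the room-air library and red for the hyperoxia library. Pdgfa stands out in AT1-like cells (982 and 1028 CPM), Pdgfb in aCap-like cells (330 and 360 CPM) and Pdgfrb in pericyte-like cells (2125 and 1381 CPM), while the leading classes of Pdgfra and Pdgfc differ between the libraries.

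Pdgfa, which encodes the ligand of the alpha receptor, was at 982 CPM under room air (910 to 1058, 695 UMIs in 66 cells) and 1028 CPM under hyperoxia (966 to 1092, 1048 UMIs in 127 cells) in AT1-like cells, the thin gas-exchange epithelium. The intervals of the libraries overlapped, with a ratio of hyperoxia over room air of 1.05 (0.950 to 1.15), although its log2 value turned from 0.066 to -0.50 when no doublets were removed. The AT1 markers summed to 20644 and 20649 CPM in this class. The 6 AT2 markers summed to 38337 CPM under room air and 9599 CPM under hyperoxia in it, and the 8 myeloid markers to 4293 and 738 CPM. The part of these other cells' markers in the Pdgfa and Pdgfb values of the AT1-like class was not tested. Pericyte-like cells ranked second in both libraries at 346 CPM (311 to 383) and 285 CPM (258 to 316). In both libraries the interval of the AT1-like class lay above that of the pericyte-like class, which lay above those of all lower classes of at least 20 cells. Smooth muscle-like cells followed at 101 and 148 CPM and alveolar type 2 (AT2)-like cells, which make surfactant, at 70.6 and 85.7 CPM. In room air these neighbours were not apart beyond their counting intervals, and under hyperoxia they were.

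AT2-like cells were more numerous than AT1-like cells (803 against 127 under hyperoxia, 156 against 66 under room air) and held much of the Pdgfa at a lower level per class. They held 8.51% of all Pdgfa UMIs under room air and 22.6% under hyperoxia, next to 34.2% and 22.9% for AT1-like cells. Together the epithelium held 50.05% (47.9 to 52.2) and 46.2% (44.7 to 47.7) of Pdgfa UMIs and the stroma 39.3% and 41.9%. Levels of Pdgfa were lower, between 10.1 and 53.2 CPM, in the fibroblast, myofibroblast, capillary and arterial classes. Small classes also carried it: 21 ciliated-like cells of the room-air library held 124 UMIs (109 CPM), and the Schwann-like class of 2 and 13 cells held 12 and 40. The lymphatic-like class of 14 and 35 cells held 26 and 13 Pdgfa UMIs among 190289 and 338726 UMIs in all. B-like cells, which give the level of free RNA, held 1 and 11 UMIs (0.472 and 2.52 CPM).

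A UMI of Pdgfa was found in 89.4% of AT1-like cells under room air and 82.7% under hyperoxia. After thinning each cell to 2000 UMIs the shares were 82.0% (68.6 to 91.4) and 83.3% (74.0 to 90.4), against 0 and 0.345% of B-like cells. In pericyte-like cells 87.2% and 74.5% of cells had a UMI, and 45.0% and 42.4% after thinning.

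Pdgfb, which encodes the ligand that recruits mural cells, was endothelial. In aCap-like cells, the capillary cells specialised for gas exchange, it was at 330 CPM (300 to 362, 157 cells) under room air and 360 CPM (347 to 373, 1121 cells) under hyperoxia. General capillary (gCap)-like cells, which include the progenitors of the capillary bed, had 239 CPM (225 to 253) and 302 CPM (291 to 315). In each library aCap-like cells were above gCap-like cells beyond the counting intervals. The endothelium held 80.6% of Pdgfb UMIs under room air and 90.1% under hyperoxia.

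The capillary class that held most Pdgfb differed between the libraries. gCap-like cells held 52.0% (49.9 to 54.1) of Pdgfb UMIs under room air and 38.6% (37.4 to 39.8) under hyperoxia, and aCap-like cells 20.2% and 47.5% (46.3 to 48.7). The levels of Pdgfb moved by less: the ratio was 1.27 (1.18 to 1.36) in gCap-like and 1.09 (0.988 to 1.21) in aCap-like cells. Beside this, aCap-like cells were 4.27% of the room-air and 10.7% of the hyperoxia library, and gCap-like cells 17.3% and 9.64%.

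Outside the capillaries, AT1-like cells came next for Pdgfb at 164 and 126 CPM among classes of at least 20 cells in each library. The smaller lymphatic-like class, of 14 and 35 cells, held 11 and 49 Pdgfb UMIs among 190289 and 338726 UMIs in all. Under hyperoxia this is a higher level than in AT1-like cells. Artery-like cells had 131 CPM (108 to 157) under room air and 83.1 CPM (69.0 to 99.2) under hyperoxia. Vein-like cells had 36.5 and 17.3 CPM (13 and 25 UMIs), a ratio of 0.473 (0.233 to 1.01). NK-like cells had 47.7 and 58.1 CPM and interstitial macrophage-like cells 36.8 and 41.9 CPM (60.1 and 56.0 CPM in their cluster led by complement genes), above B-like cells at 2.83 and 4.80 CPM. In the stroma, pericyte-like cells had 3 and 5 Pdgfb UMIs, a level like that of B-like cells. The 14 UMIs of adventitial fibroblast-like cells under room air all came from 1 cell. An unnamed cluster of the lymphocyte lineage, of 36 room-air and 26 hyperoxia cells, had the endothelial genes Ptprb and Gpihbp1 among its leading genes. Its room-air cells held 106 Pdgfb UMIs.

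**Figure D2:**
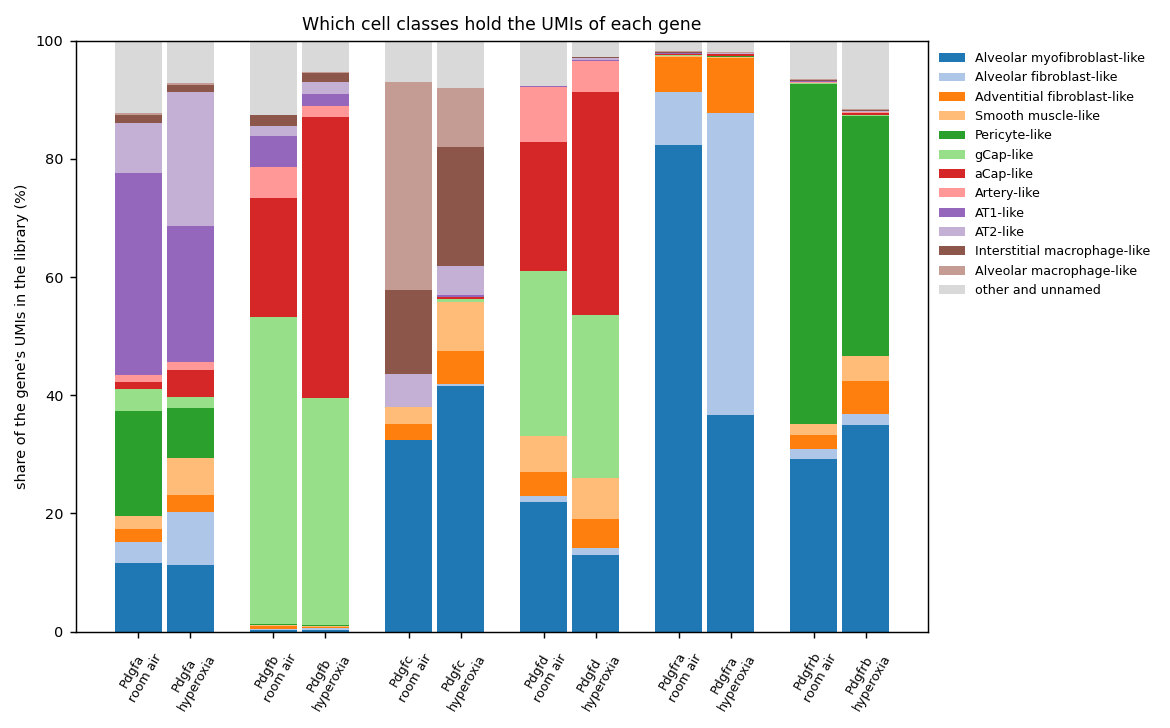
Share of all UMIs of each gene in a library (y axis, %) that fell in each of 12 cell classes, with other and unnamed cells in grey, for the room-air and the hyperoxia library of each gene (x axis). Alveolar myofibroblast-like cells hold 82.4% of Pdgfra under room air and 36.6% under hyperoxia, and alveolar fibroblast-like cells 8.87% and 51.2%.

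Pdgfc was sparse, with 71 UMIs in the room-air and 339 in the hyperoxia cells. Interstitial macrophage-like cells had 8.57 CPM (10 UMIs) under room air and 28.2 CPM (68 UMIs) under hyperoxia, a ratio of 3.29 (1.68 to 7.17). Its log2 value of 1.72 was 0.82 when each library was clustered alone, with an interval that reached below 0. The class was made of 2 clusters that held cells of both libraries. The cluster led by the complement genes C1qa, C1qc and C1qb went from 19.4 CPM (9.30 to 35.7) to 56.9 CPM (44.0 to 72.3), a ratio of 2.93 (1.5 to 6.4). The other cluster held 0 and 2 Pdgfc UMIs. All 6 macrophage markers were raised in it, but its leading genes were Ccl17, Mgl2, Cd209a and class II histocompatibility genes, which dendritic cells also express, so its name is less sure and the value of the first cluster is the one that rests on macrophage genes.

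In the stroma Pdgfc was at 3.92 CPM (23 UMIs) and 14.3 CPM (141 UMIs) in alveolar myofibroblast-like cells, a ratio of 3.64 (2.33 to 5.93). In the myofibroblast-like cluster shared by the libraries, led by Aspn, Grem1 and Lrrc15, the ratio was 1.46 (0.669 to 3.51). Clusters mostly of 1 library were paired by shared leading genes. Those led by Agt, Egfem1 and Cd248 had 3 and 30 UMIs, a ratio of 4.92 (1.53 to 25.2). Those led by Prss35, Wnt5a and Aspn under room air and by Pappa2, Aspn and Fgf18 under hyperoxia had 10 and 76 UMIs. Their ratio was 5.29 (2.72 to 11.5). Smooth muscle-like cells had 2 and 28 UMIs (4.60 and 14.5 CPM), with a ratio of 3.16 (0.796 to 27.3), and adventitial fibroblast-like cells 2 and 19 UMIs, with a ratio of 2.81 (0.678 to 24.9). Vein-like cells had 1 and 19 UMIs (ratio 4.67, 0.743 to 194). Alveolar macrophage-like cells had the highest Pdgfc level under room air, 11.9 CPM (25 UMIs), and 5.83 CPM (34 UMIs) under hyperoxia. Over the whole library Pdgfc went from 1.95 to 3.88 CPM, a ratio of 1.99 (1.54 to 2.61).

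Pdgfd, a ligand of the beta receptor, was found in endothelium, contractile cells and fibroblasts. aCap-like cells had 67.6 CPM (54.5 to 83.1) under room air and 61.2 CPM (56.0 to 66.8) under hyperoxia. Smooth muscle-like cells had 59.9 and 48.8 CPM and artery-like cells 44.7 and 49.7 CPM, and the order of these 3 classes was not resolved by counting in either library. Pdgfd in gCap-like cells was 24.4 CPM (20.1 to 29.2) under room air and 46.5 CPM (42.0 to 51.5) under hyperoxia. The intervals of the gCap-like class did not overlap, and its ratio was 1.91 (1.55 to 2.37), a log2 ratio of 0.93 that was 0.56 at clustering resolution 2. Of gCap-like cells 85.6% under room air and 83.8% under hyperoxia lay in clusters with over 90% of cells from their own library. In the cluster that the libraries shared (2 and 8 UMIs) the Pdgfd ratio was 1.81 (0.361 to 17.5). In the main clusters of each library, of 545 and 697 cells and paired by 4 shared leading genes, it was 2.13 (1.71 to 2.67, 109 and 321 UMIs). Adventitial fibroblast-like cells had 20.5 and 24.3 CPM and alveolar myofibroblast-like cells 15.7 and 17.9 CPM. In vein-like cells Pdgfd was at 19.7 and 5.53 CPM (7 and 8 UMIs), a ratio of 0.281 (0.0891 to 0.911).

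No Pdgfd UMI was counted in the pericyte-like cells of either library, which allows up to 2.87 CPM under room air and 2.23 CPM under hyperoxia. The same holds for Pdgfc, so the pericyte-like class carried Pdgfa but not measurable Pdgfc or Pdgfd. In the capillaries, Pdgfb and Pdgfd were found together: 85.8% of gCap-like cells with Pdgfd under hyperoxia and 80.6% under room air also had Pdgfb. In all gCap-like cells the share with both was 12.4% under room air and 23.9% under hyperoxia. After thinning to 2000 UMIs it was 2.32% and 2.72%, close to the 1.96% and 3.12% that the product of the separate shares gives.

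The receptors were almost confined to the stroma in both libraries. Stromal cells held 97.5% (96.9 to 97.9) and 97.8% (97.5 to 98.1) of Pdgfra UMIs and 96.3% (95.7 to 96.9) and 97.1% (96.6 to 97.6) of Pdgfrb UMIs. Capillary, AT2-like and macrophage-like classes had at most 5.14 CPM of either receptor. B-like cells, as the level of free RNA, had 2.83 and 3.66 CPM of Pdgfra and 2.83 and 1.83 CPM of Pdgfrb. Higher values rested on few UMIs. Vein-like cells had 7 and 2 Pdgfra UMIs (19.7 and 1.38 CPM) and AT1-like cells 6 and 3 (8.48 and 2.94 CPM). Nonclassical monocyte-like cells had 10 and 1 Pdgfrb UMIs (8.89 and 2.05 CPM). Part of the remainder lay in 2 unnamed clusters of the epithelial lineage with stromal leading genes (Acta2 and Aspn in the first, Hmcn1 and Wnt5a in the second), which in the hyperoxia library held 23 and 40 Pdgfra UMIs.

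Pdgfra, the receptor for PDGF-A, moved in opposite directions in 2 fibroblast classes. In alveolar myofibroblast-like cells it was 582 CPM under room air (563 to 602, 3416 UMIs in 420 cells) and 299 CPM under hyperoxia (288 to 310, 2955 UMIs in 785 cells). In alveolar fibroblast-like cells, the Tcf21-expressing fibroblasts of the alveolar wall, it was 118 CPM under room air (106 to 131, 368 UMIs in 215 cells) and 323 CPM under hyperoxia (313 to 333, 4129 UMIs in 1182 cells). The ratio was 0.514 (0.489 to 0.540) in the first class and 2.74 (2.46 to 3.05) in the second, and the difference between them was not tested, there being 1 library per group. Adventitial fibroblast-like cells, which surround vessels and airways, had 305 and 267 CPM (ratio 0.876, 0.758 to 1.01).

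The order of the fibroblast classes changed with these values. In room air Pdgfra fell from myofibroblast-like to adventitial to alveolar fibroblast-like cells, each step beyond the counting intervals. In hyperoxia alveolar fibroblast-like cells ranked first, myofibroblast-like cells second and adventitial cells after them, again with each step beyond the counting intervals. Smooth muscle-like cells had 1 and 17 Pdgfra UMIs (2.30 and 8.82 CPM) and pericyte-like cells 3 and 4, values near those of B-like cells.

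The share of cells with a Pdgfra UMI moved the same way. It was 81.4% and 68.2% in alveolar myofibroblast-like cells, and 52.5% (47.6 to 57.4) and 38.3% (34.9 to 41.8) at 2000 UMIs per cell. In alveolar fibroblast-like cells it was 64.2% and 79.6%, and 22.9% (17.1 to 29.5) and 42.4% (39.4 to 45.4) at 2000 UMIs per cell. B-like cells were at 0.983% and 1.21%, and at 0.543% and 0.431% after thinning. Median depth before thinning was 14344.5 and 12130 UMIs in myofibroblast-like, 15808 and 11199.5 in alveolar fibroblast-like and 4491 and 2906 in B-like cells.

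These classes were made of clusters that mostly belonged to 1 library. Of alveolar myofibroblast-like cells 80.0% under room air and 75.2% under hyperoxia, and of alveolar fibroblast-like cells 81.4% and 88.4%, lay in clusters with over 90% of cells from their own library. Pdgfra was therefore also compared between clusters paired by their shared leading genes, as a description. Myofibroblast-like clusters led by Agt, Egfem1 and Cd248 had 1151 CPM under room air (1099 to 1204, 123 cells) and 567 CPM under hyperoxia (541 to 593, 250 cells). Clusters led by Prss35, Wnt5a and Aspn under room air and by Pappa2, Aspn and Fgf18 under hyperoxia had 444 and 201 CPM. A cluster led by Aspn, Grem1 and Lrrc15 that held 63 room-air and 156 hyperoxia cells had 52.1 CPM (38.0 to 69.7) and 13.02 CPM (8.34 to 19.4). Pdgfra was thus lower under hyperoxia in all 3 pairs, by ratios of 0.492 (0.462 to 0.525), 0.452 (0.415 to 0.493) and 0.250 (0.146 to 0.419), and differed more between the clusters of a library than between libraries.

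Alveolar fibroblast-like clusters showed the opposite. The room-air cluster led by Crabp1, Tcf21 and Scube2 had 109 CPM of Pdgfra (97.7 to 122, 175 cells). The hyperoxia clusters led by Inmt, Scube2 and Col13a1 and by Inmt, Scube2 and Tcf21 had 323 CPM (310 to 337, 598 cells) and 328 CPM (313 to 343, 447 cells). A shared cluster of low depth, led by Inmt, Tcf21 and Adh1, had 1 UMI in 36 room-air cells and 24 UMIs in 136 hyperoxia cells, a ratio of 7.31 (1.19 to 301).

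**Figure D3:**
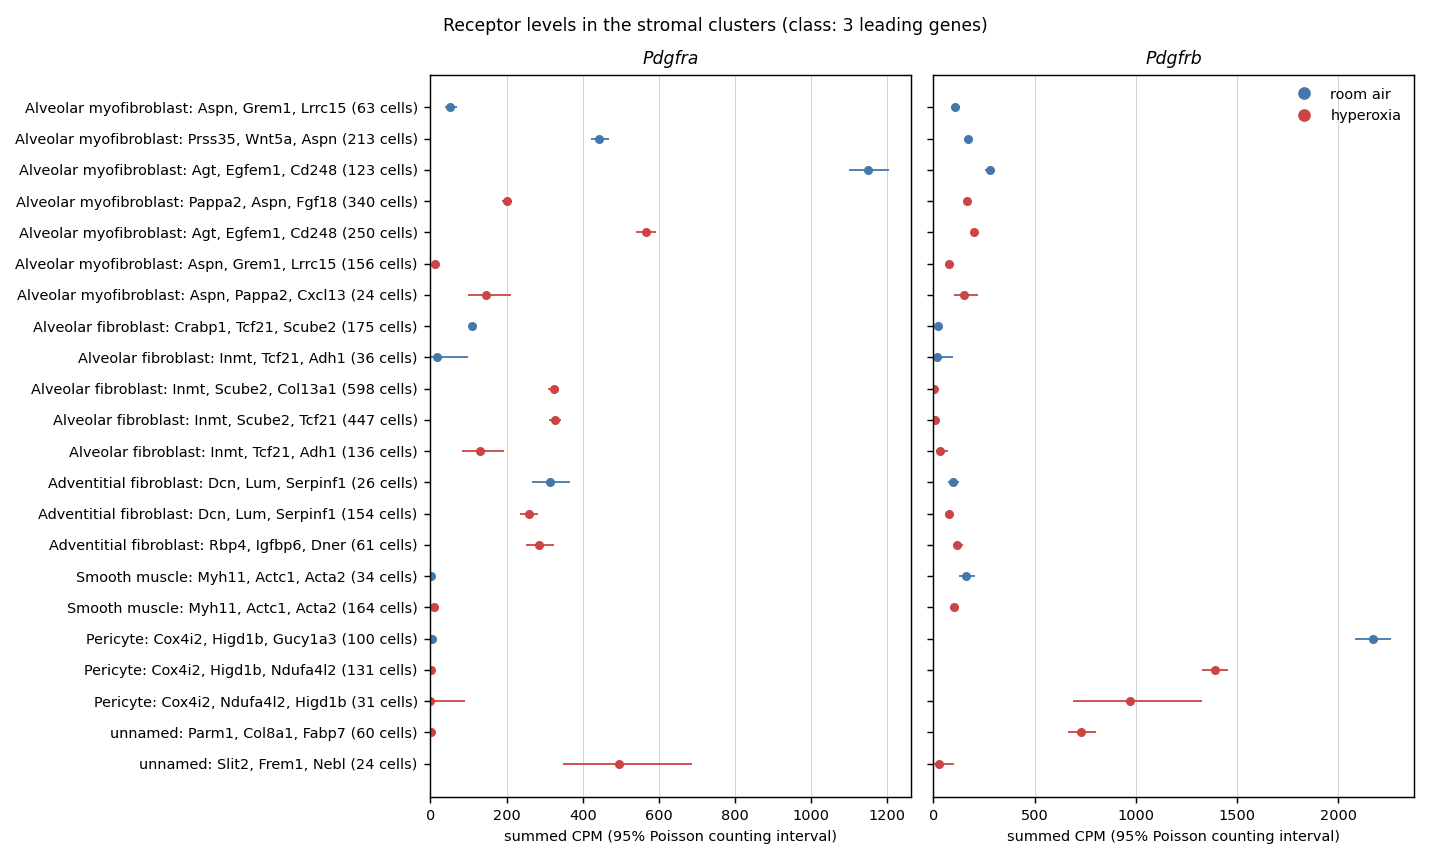
Summed CPM (x axes, linear, 95% Poisson counting intervals as bars) of Pdgfra (left) and Pdgfrb (right) in the stromal clusters of at least 20 cells in a library (y axis, class and 3 leading genes), blue for room air and red for hyperoxia. Pdgfra ranges from 13.02 to 1151 CPM among myofibroblast-like clusters, and Pdgfrb stays above 970 CPM in each pericyte-like cluster.

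Marker sums of the stromal classes were set beside these Pdgfra values. In the alveolar fibroblast-like class all 8 of its own markers were detected in both libraries and summed to 9343 and 9946 CPM. There the 8 myofibroblast markers summed to 367 and 505 CPM, against 9105 and 9198 CPM in the myofibroblast-like class itself, and the 8 adventitial markers to 1938 and 2372 CPM. In the myofibroblast-like class the 8 alveolar fibroblast markers summed to 116 and 94.6 CPM and the 7 smooth muscle markers to 2329 and 3644 CPM, with all 7 higher under hyperoxia. The part of these markers in the Pdgfra values was not tested.

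Pdgfrb (GRCm38, chr18:61045150-61085061, plus strand), the receptor for PDGF-B and PDGF-D, was highest in pericyte-like cells and was lower under hyperoxia there. Pericyte-like cells had 2125 CPM under room air (2037 to 2215, 2218 UMIs in 109 cells) and 1381 CPM under hyperoxia (1319 to 1445, 1857 UMIs in 165 cells), a ratio of 0.650 (0.611 to 0.691). Alveolar myofibroblast-like cells had 192 and 162 CPM (ratio 0.841, 0.779 to 0.909). Smooth muscle-like cells had 163 and 103 CPM (ratio 0.629, 0.477 to 0.837) and adventitial fibroblast-like cells 110 and 91.5 CPM. Alveolar fibroblast-like cells were lowest, with 21.1 CPM (66 UMIs) and 6.80 CPM (87 UMIs), a ratio of 0.321 (0.231 to 0.450). In that class the 9 pericyte markers summed to 442 and 272 CPM and the 7 smooth muscle markers to 342 and 139 CPM, with 1 of each list higher under hyperoxia, and their part in its Pdgfrb value was not tested.

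All 5 named stromal classes with at least 20 cells thus had a lower Pdgfrb level in the hyperoxia library. The interval of the ratio lay below 1 in 4 of them, and reached 1.07 in adventitial fibroblast-like cells (0.832, 0.653 to 1.07). The myofibroblast-like cluster pairs differed. The ratio was 0.725 (0.643 to 0.818) in the pair led by Agt and 0.719 (0.549 to 0.945) in the shared cluster led by Aspn. It was 0.968 (0.863 to 1.09) in the pair led by Prss35 under room air (213 cells) and by Pappa2 under hyperoxia (340 cells), so no drop beyond counting error was seen there. In the main pericyte-like clusters of the libraries, led by Cox4i2 and Higd1b, Pdgfrb was 2171 and 1391 CPM. Of pericyte-like cells 91.7% and 79.4% lay in clusters with over 90% of cells from their own library. The 9 pericyte markers summed to 18960 and 14452 CPM in this class, with 2 of 9 higher under hyperoxia, and their part in the Pdgfrb value was not tested. A hyperoxia cluster of 60 stromal cells left unnamed, led by Parm1, Col8a1 and Fabp7, had 731 CPM of Pdgfrb and 1 UMI of Pdgfra.

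In the whole library Pdgfrb went from 106 to 52.4 CPM, a ratio of 0.496 (0.475 to 0.517), and Pdgfra from 114 to 92.2 CPM, a ratio of 0.811. For Pdgfrb the level within the pericyte-like class and the share of that class among the cells moved the same way. Pericyte-like cells were 2.96% of cells under room air (109 cells) and 1.58% under hyperoxia (165 cells). The class held 57.5% of Pdgfrb UMIs under room air and 40.5% under hyperoxia. The whole-library ligand levels moved from 55.8 to 52.3 CPM for Pdgfa, from 60.4 to 72.7 CPM for Pdgfb and from 11.5 to 15.6 CPM for Pdgfd.

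Both receptors were found in the same cell mainly in alveolar myofibroblast-like and adventitial fibroblast-like cells. In the myofibroblast-like class 71.0% (66.4 to 75.3) of cells under room air and 56.8% (53.3 to 60.3) under hyperoxia had a UMI of each. At 2000 UMIs per cell the shares were 17.9% (14.3 to 21.9) and 12.03%. The adventitial class had 73.8% and 54.0% (7.32% and 3.35% after thinning), the alveolar fibroblast-like class 7.44% and 4.57%, and the smooth muscle-like and pericyte-like classes at most 2.94%. In the myofibroblast-like class the share expected from the product of the separate shares was 67.9% and 51.0%.

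Over the 5 named stromal classes, 42.6% of 820 room-air and 24.8% of 2511 hyperoxia cells had both receptors. Cells with Pdgfra alone made up 21.1% and 41.8%, cells with Pdgfrb alone 22.7% and 16.7%, and cells with neither 13.7% and 16.7%. Of the cells with both, 85.4% and 71.6% were myofibroblast-like. The class makeup differed as well, with alveolar fibroblast-like cells at 5.84% and 11.3% of their library and myofibroblast-like cells at 11.4% and 7.50%.

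**Figure D4:**
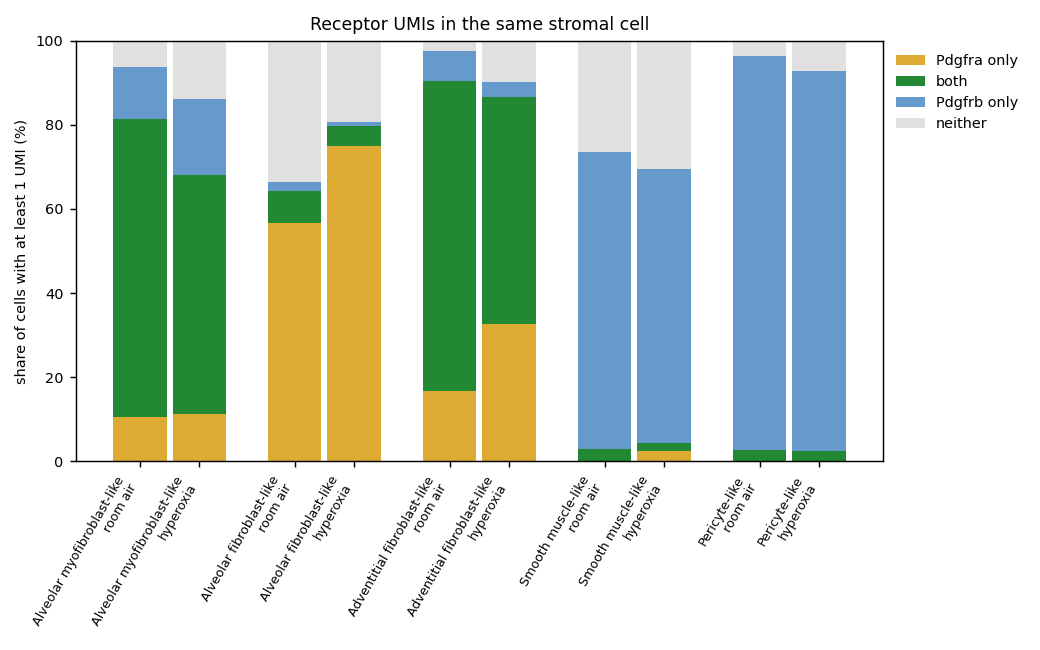
Share of cells (y axis, %) with at least 1 UMI of Pdgfra only, of both receptors, of Pdgfrb only or of neither, in the 5 stromal classes of the room-air and the hyperoxia library (x axis), without thinning. Double-positive cells make up 71.0% and 56.8% of alveolar myofibroblast-like cells but at most 2.94% of smooth muscle-like and pericyte-like cells.

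Some stromal cells carried a ligand together with a receptor. In pericyte-like cells 87.2% (79.4 to 92.8) of cells under room air and 72.7% (65.3 to 79.4) under hyperoxia had UMIs of Pdgfa and Pdgfrb, which are not a preferred pair, and 44.0% and 39.6% after thinning. For these pericyte-like cells the product of the separate shares was 84.0% and 69.1%, and 43.2% and 40.0% after thinning. In smooth muscle-like cells 52.9% and 51.8% had both Pdgfa and Pdgfrb, and 11.8% and 6.10% after thinning. Before thinning the product there was 51.9% and 48.7%, so in both classes the shares were close to those of separate detection. Both Pdgfd and Pdgfrb were found in 29.4% and 27.4% of smooth muscle-like cells, and in 5.88% and 0% after thinning. Pdgfa with its own receptor Pdgfra was found in 24.8% and 24.1% of alveolar myofibroblast-like and 18.6% and 23.7% of alveolar fibroblast-like cells. The product of the separate shares gives 28.5% and 27.0% in the myofibroblast-like class and 15.8% and 20.5% in the alveolar fibroblast-like class. After thinning the shares with both were 3.34% and 2.59% in the myofibroblast-like and 2.13% and 1.96% in the alveolar fibroblast-like class.

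The hyperoxia over room-air ratios were set beside those of all genes, by counting ratios of at least 1.5-fold in either direction among genes with a mean of at least 10 CPM in the class. This is a rule of size, not a test. Over 10 stromal, endothelial and epithelial classes, 30 values of the PDGF genes could be counted, and 10 passed the fold, 3 higher and 7 lower under hyperoxia. Of all genes, 10.9% to 30.5% passed it in the single classes. Vein-like and immune classes were not part of this count. In alveolar myofibroblast-like cells 1 of 4 PDGF genes passed (Pdgfra, lower), against 10.9% of 8419 genes. In alveolar fibroblast-like cells 2 of 3 passed (Pdgfra higher, Pdgfrb lower), against 15.5% of genes. In adventitial fibroblast-like cells 1 of 5 passed, against 19.2%. This was Pdgfb, whose room-air value came from 1 cell.

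In smooth muscle-like cells 1 of 3 passed (Pdgfrb, lower) against 30.5% of genes, and in pericyte-like cells 1 of 2 (Pdgfrb, lower) against 24.4%. In gCap-like cells 2 of 3 passed, with Pdgfd higher and Pdgfa lower (15.6 and 10.1 CPM), against 16.9% of genes. The Pdgfa value there, a log2 ratio of -0.63, lay between -0.77 and -0.31 and fell short of 1.5-fold under 4 of 11 alternatives. In artery-like cells 2 of 3 passed, with Pdgfa higher (28.7 and 45.6 CPM) and Pdgfb lower, against 29.2%. The Pdgfa ratio there, from 25 and 67 UMIs, was 1.59 with an interval that included 1 (0.992 to 2.63). None passed of 3 in aCap-like cells (background 17.2%), of 2 in AT1-like cells (24.8%) or of 2 in AT2-like cells (13.1%). With 2 to 5 genes per class, these counts describe the members and do not set them apart from the background. The Pdgfb value of artery-like cells depended on how cells were named: its log2 ratio was -0.65, and 0.52 when each cell was named by its own marker score.

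**Figure D5:**
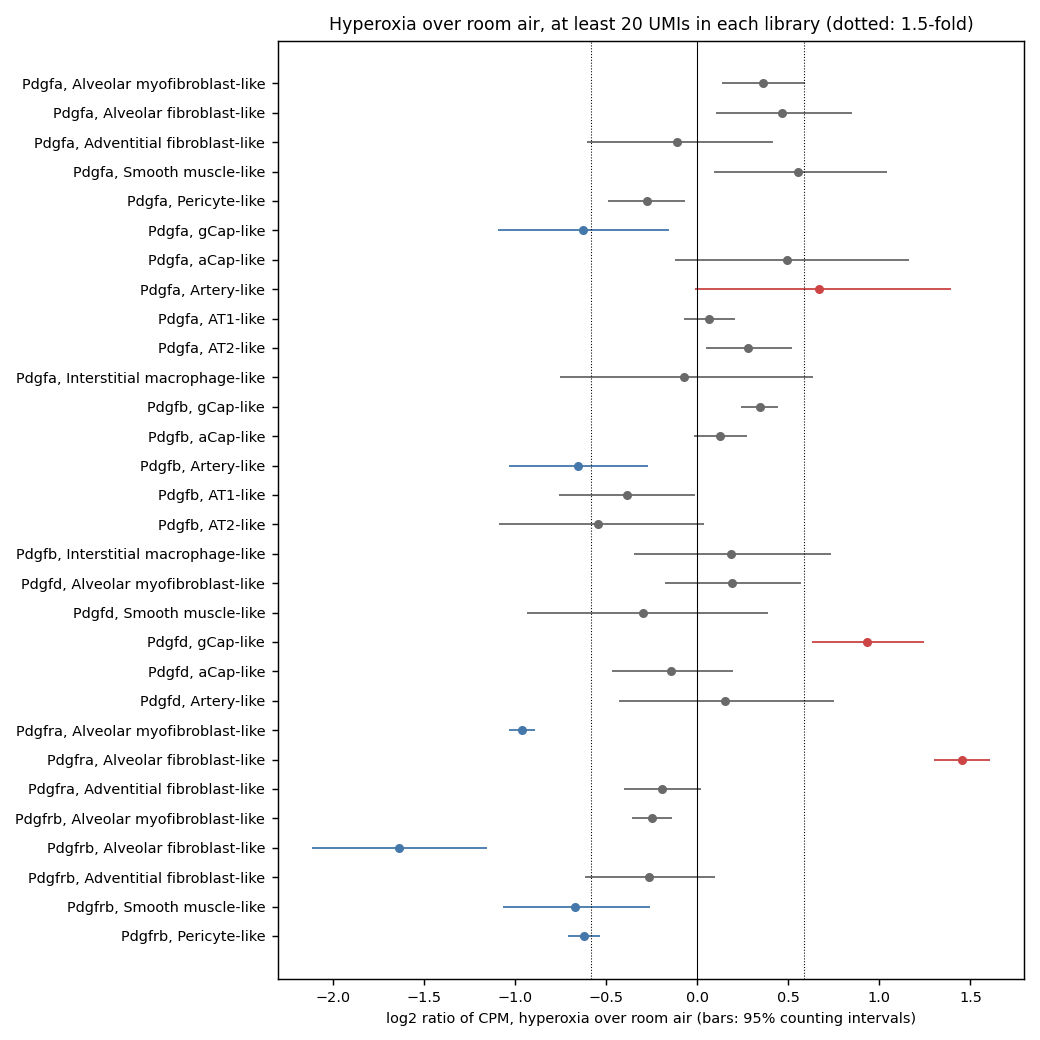
Log2 ratio of CPM, hyperoxia over room air (x axis, 95% counting intervals as bars), for PDGF genes by class (y axis). Shown are values with a mean of at least 10 CPM and at least 20 UMIs in each library. Dotted lines mark 1.5-fold, and red and blue points lie past it. Pdgfra lies at 1.45 in alveolar fibroblast-like and at -0.96 in alveolar myofibroblast-like cells, and Pdgfrb at -1.64 in alveolar fibroblast-like cells.

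Several ratios depended on how the cells were defined. The log2 ratio of Pdgfra was -0.96 in alveolar myofibroblast-like cells and lay between -1.84 and -0.80 under 11 alternatives, always past 1.5-fold and lower under hyperoxia. In alveolar fibroblast-like cells it was 1.45 and lay between 1.37 and 1.46. Pdgfrb in pericyte-like cells was -0.62, between -0.87 and -0.52, and was past 1.5-fold under 9 of the 11 alternatives. Pdgfrb in alveolar fibroblast-like cells was -1.64, but -0.58, short of 1.5-fold, when each cell was named by its own markers, and in smooth muscle-like cells -0.67, with -1.70 when more doublets were removed and -0.44 when each cell was named by its own markers.

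A list of 27 genes that process PDGFs, bind them or act below the receptors was examined by the same rule. In alveolar fibroblast-like cells, where Pdgfra was higher under hyperoxia, 9 of 22 listed genes with enough counts were past 1.5-fold higher and 1 lower, beside 706 higher and 595 lower of all 8419 genes (15.5%). The median log2 ratio was 0.34 beside 0.026 over all genes. Higher were 3 of 4 binding partners, led by the co-receptor Nrp1 (192 and 588 CPM, ratio 3.06), together with the scavenger receptor Lrp1 (333 and 535 CPM) and Pdgfrl. Of 10 signal transducers, 3 were higher: Pik3r1, the regulatory subunit of PI3-kinase (200 and 391 CPM), the adaptor Crk and the transcription factor Stat3 (87.8 and 184 CPM). All 3 countable response genes were higher, namely Egr1 (1290 and 2206 CPM), Fos (985 and 1920 CPM) and the chemokine Cxcl1. In artery-like cells, with little Pdgfra (4.59 and 1.36 CPM) or Pdgfrb (5.73 and 5.45 CPM), all 3 countable response genes were higher as well. Whether the response genes follow the receptor level was not tested. Furin, a protease that processes PDGF-A and PDGF-B, was lower (76.6 and 46.5 CPM).

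In alveolar myofibroblast-like cells, where Pdgfra was lower, 2 of 23 listed genes were higher and 0 lower, a share near the 10.9% of all genes. These were Plat, the tissue plasminogen activator that cleaves PDGF-C (284 and 430 CPM, ratio 1.51), and Cxcl1 (36.6 and 68.5 CPM). None of the 10 signal transducers passed the fold there.

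In pericyte-like cells 7 of 24 listed genes were higher and 3 lower, beside 24.4% of all genes in either direction. Of 5 response genes 4 were higher, the chemokines Ccl2 (1 and 273 UMIs, ratio 212, 37.7 to 8398) and Cxcl1 (74.7 and 356 CPM) among them, with Egr1 and Myc. Plat was higher (188 and 381 CPM), and the kinase Src (112 and 69.9 CPM), the ubiquitin ligase Cblb, which limits receptor signalling, and Furin (89.1 and 44.6 CPM) were lower. Smooth muscle-like cells had 12 of 24 higher and 4 lower beside 30.5% of all genes, with 34 cells under room air. Adventitial fibroblast-like cells had 3 of 24 higher and 1 lower, a share no larger than the 19.2% of all genes.

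In the endothelial and epithelial classes few listed genes passed the fold outside artery-like cells. In gCap-like cells it was 0 of 19 (16.9% of all genes), and in aCap-like cells 1 was higher and 1 lower of 19 (17.2%). In AT1-like cells 3 were higher and 1 lower of 21 (24.8%), and in AT2-like cells 0 and 3 of 20 (13.1%). Plat was at 35.7 and 145 CPM in aCap-like (ratio 4.06, 3.04 to 5.54) and 228 and 801 CPM in artery-like cells (ratio 3.51, 3.02 to 4.10). Artery-like cells had 6 of 20 higher and 0 lower, a share near the 29.2% of all genes. Among them were all 3 countable response genes and the phosphatase Ptprj, which dephosphorylates the beta receptor (58.5 and 287 CPM). In AT2-like cells the lower genes were Furin (53.5 and 28.0 CPM), Nck1 and the PDGF-binding matrix protein Sparc (810 and 407 CPM).

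The genes with the most similar profiles were found by Pearson correlation of log2(CPM + 1) over 20 classes in both libraries, 40 profiles among 7228 genes. The profiles share libraries and free RNA, so r is a description. Pdgfa was closest to Nbeal1 (r = 0.897), Src (0.871) and Tead1 (0.861), and Pdgfb to Clic5 (0.830), Gdpd5 (0.789) and Rasgef1a (0.788). Pdgfd was closest to Map1b (0.907), Mpped2 (0.865) and 9430020K01Rik (0.863). The sparse Pdgfc had lower values, with Adam33 (0.679), Col14a1 (0.638) and Ccl8 (0.626).

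Pdgfra was closest to Lpar1 (0.931), Adgrg2 (0.927) and Nrcam (0.926), and Pdgfrb to the matrix genes Postn (0.941) and Spon2 (0.925) and the guanylate cyclase subunit Gucy1a3 (0.924), a pericyte marker. The receptors correlated with each other at 0.490. Pdgfb and Pdgfrb correlated at -0.464 and Pdgfa and Pdgfra at 0.271.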

How the data were processed

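Single-cell RNA-seq (10x Genomics 3′ chemistry, v2 per the labels but V3 in the study's methods) was made from 1 library per group. The authors deposited raw counts, UMIs per gene and barcode, with no normalization, aligned to mm10. The sources disagree on the software: the submitters' processing notes give Cell Ranger 2.1.1, the extract protocol 6.1.1 and the matrix header software 3.1.0. The 10x chemistry counts transcript 3′ ends, and repeated reads of a molecule count once.

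Python 3.11.15, numpy 2.4.6, scipy 1.17.1, pandas 2.3.3, scikit-learn 1.9.0, igraph 0.11.9, leidenalg 0.10.2 and matplotlib 3.10.9 were used. The filter required 500 genes and allowed 20% mitochondrial UMIs per cell, and 3809 and 11711 cells passed. Predicted doublets, ranked by simulated neighbours, were removed at 0.8% per 1000 barcodes (129 and 1239). Counts scaled to 10000 per cell, 2000 variable genes, 30 principal components, 20 neighbours and Leiden resolution 1 gave 31 clusters and, within lineages, 75 sub-clusters, of which 62 were named and the rest left unnamed. No PDGF or listed pathway gene, and no haemoglobin gene, entered the clustering. A name needed at least 3 raised markers. The rule for naming was revised 3 times with the clusters in view, and the members, gene lists and alternatives were chosen with earlier results of these data known.

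UMIs were summed per class and library. Levels have exact Poisson intervals, ratios and shares Clopper-Pearson intervals, and a count of 0 allows up to 3 counts. No test between groups was made. All 6 genes were described in every class of at least 20 cells per library and smaller classes by counts, with the 27 listed genes and the 3 most similar genes per member (at least 50 CPM in a class of each library). The summation and thinning steps were checked on simulated data. Genes were not scaled by length, so levels of different genes are not comparable.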

Additional observations from a re-analysis of the deposited data

Results flagged for a closer look

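One pattern stood out for a closer look. Pdgfra moved in opposite directions in alveolar myofibroblast-like cells (log2 ratio of hyperoxia over room air -0.96, from 582 to 299 CPM) and in alveolar fibroblast-like cells (1.45, from 118 to 323 CPM). It was picked out because the libraries differ in opposite directions in these classes. Each group is 1 library of 8 pooled mice, so the difference was not tested. Most cells of both classes lay in clusters made of 1 library, and the paired clusters described above moved in the same directions as their classes.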

How the results depend on the processing

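Values here are log2 ratios of hyperoxia over room air, recomputed under 11 alternatives each, of which the restriction to cells of at least 2000 UMIs was chosen after seeing the data. For the 10 main ratios, 95 of 110 recomputed values stayed within counting error of the first. Pdgfa in AT1-like cells (0.066) was -0.50 with no doublets removed, -0.22 with the expected number of doublets doubled, -0.23 with each cell named by its own markers and -0.087 as the mean over single cells. Pdgfra in alveolar myofibroblast-like cells (-0.96) was -1.84 with a stricter filter (1000 genes required, 10% mitochondrial UMIs allowed), -0.80 at clustering resolution 0.5 and -1.79 at resolution 2. Pdgfrb in pericyte-like cells (-0.62) was -0.52 with doubled doublets, no longer past 1.5-fold, and -0.87 with each library clustered alone. Pdgfrb in smooth muscle-like cells (-0.67) was -1.70 and -1.50 under the same changes. Pdgfb in artery-like cells (-0.65) was -1.06 with each library clustered alone and -0.083 at resolution 2, and reversed to 0.52 with each cell named by its own markers. Pdgfd in gCap-like cells (0.93) was 0.56 at resolution 2. These alternatives change which cells form a class: AT1-like cells in hyperoxia numbered 127, 175 with no doublets removed and 37 with doubled doublets, and the myofibroblast-like class 785, 601 with the stricter filter and 546 at resolution 2. The cause was otherwise not tested. Pdgfra in alveolar fibroblast-like cells ranged from 1.37 to 1.46. Of 231 further recomputed ratios 12 moved beyond counting error. Those of values past 1.5-fold kept their sign, whereas smaller ones could change it, as Pdgfa in interstitial macrophage-like cells (-0.074, between -0.47 and 0.45) and Pdgfb in AT1-like cells (-0.38, up to 0.19). All 12 shares of UMIs kept their value within error. Of 20 changes in the share of positive cells 4 moved with the thinning depth, as Pdgfb in artery-like cells (-4.13 percentage points, -24.0 when more UMIs were kept) and Pdgfrb in pericyte-like cells (-1.76, -11.5 at 1000 UMIs). Pdgfc in interstitial macrophage-like cells (1.72) was 0.82 with each library clustered alone. The share of genes past the fold moved most, with 24 of 30 values over 1.5 times from the first. No paired analysis was possible because each group is 1 library. Pdgfc, with 71 UMIs in room air, limits what its ratios can show. The share of genes past the 1.5-fold line, 10.9% to 30.5% across the classes compared, was 37.7% to 52.1% over all genes with at least 1 UMI, 9.17% to 22.3% over genes of a mean CPM of at least 50, and 3.04% to 11.3% at a fold of 2.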
